A study of Mus musculus with 2 samples.

Results

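Of 13240 cell barcodes from dissociated mouse liver, 1929 held at least 1000 UMIs and gave more than 30% but at most 80% of those UMIs to the 13 protein-coding genes of the mitochondrial genome (the mt- genes). A barcode marks 1 droplet, and a UMI (unique molecular identifier) stands for 1 captured transcript. These 1929 barcodes, the members, were 439 of 7359 (5.97%, exact binomial 95% interval 5.44 to 6.53) in the library from chow-fed mice and 1490 of 5881 (25.3%, 24.2 to 26.5) in the library from mice on a NASH diet. Members were selected on 2 measured values, the total UMIs and the mitochondrial share, so both are given as descriptions only. Apart from the makeup of the mitochondrial RNA itself, everything below is about the other RNA of these barcodes, with the mt- genes taken out and the remaining UMIs rescaled to a fixed total (CPM, UMIs per 1e6 non-mitochondrial UMIs).

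The mitochondrial genome encodes core subunits of the respiratory chain, and its transcripts stay inside the organelle, whereas nuclear-encoded messages are spread over the nucleus, the cytosol and the surface of the endoplasmic reticulum. Hepatocytes are rich in mitochondria. A high mitochondrial share of reads is widely used to set aside damaged cells, because free cytosolic RNA can leave a leaking cell while RNA held in organelles stays. Messages for secreted and membrane proteins are translated on the endoplasmic reticulum after a hydrophobic signal sequence at the start of the nascent protein is recognized, so they are tied to a membrane in a way that messages for ribosomal, proteasomal and cytosolic proteins are not.

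The study dissociated livers of C57BL/6 mice kept for 6.5 weeks on chow or on a NASH diet high in fructose, fat and cholesterol, a dietary model of nonalcoholic steatohepatitis. Livers were perfused with collagenase, cells were separated by low-speed and faster spins (100 g and 1000 g) with 90% and 25% Percoll, and 10x Genomics 3' libraries were made. Each diet had 1 library, and how many mice were pooled into it is not known from the labels. Intervals therefore cover counting error only, no test between diets or between sets of barcodes was possible, and a gene was counted as higher or lower when it passed a 2-fold difference.

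The libraries held 71635757 UMIs (chow) and 39440182 UMIs (NASH diet). Members carried 3.45% and 12.8% of the non-mitochondrial UMIs of these libraries. The 69 barcode sequences that occurred in both libraries included 8 chow and 16 NASH diet members. Scrublet, a doublet caller, marked no barcode in either library and so did not work here, and doublets were not removed in the values below.

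Members were not one uniform set. Their median mitochondrial share was 48.0% in chow and 39.7% on the NASH diet, and their median total was 4387 and 1509 UMIs. In the NASH diet set 949 of the 1490 members held under 2000 UMIs, against 100 of 439 in chow. The deep members nonetheless weighed most in pooled counts: the 125 chow and 224 NASH diet members of 8000 UMIs or more gave 69.0% and 56.7% of the members' non-mitochondrial UMIs. In chow the members thinned out from 156 at 30 to 40% mitochondrial share to 31 at 60 to 70%, then numbered 126 at 70 to 80%, and 65 of those 126 held under 2000 UMIs. NASH diet members numbered 764 at 30 to 40%, 58 at 60 to 70% and 86 at 70 to 80%, and none of these 86 held under 2000 UMIs.

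**Figure D1:**
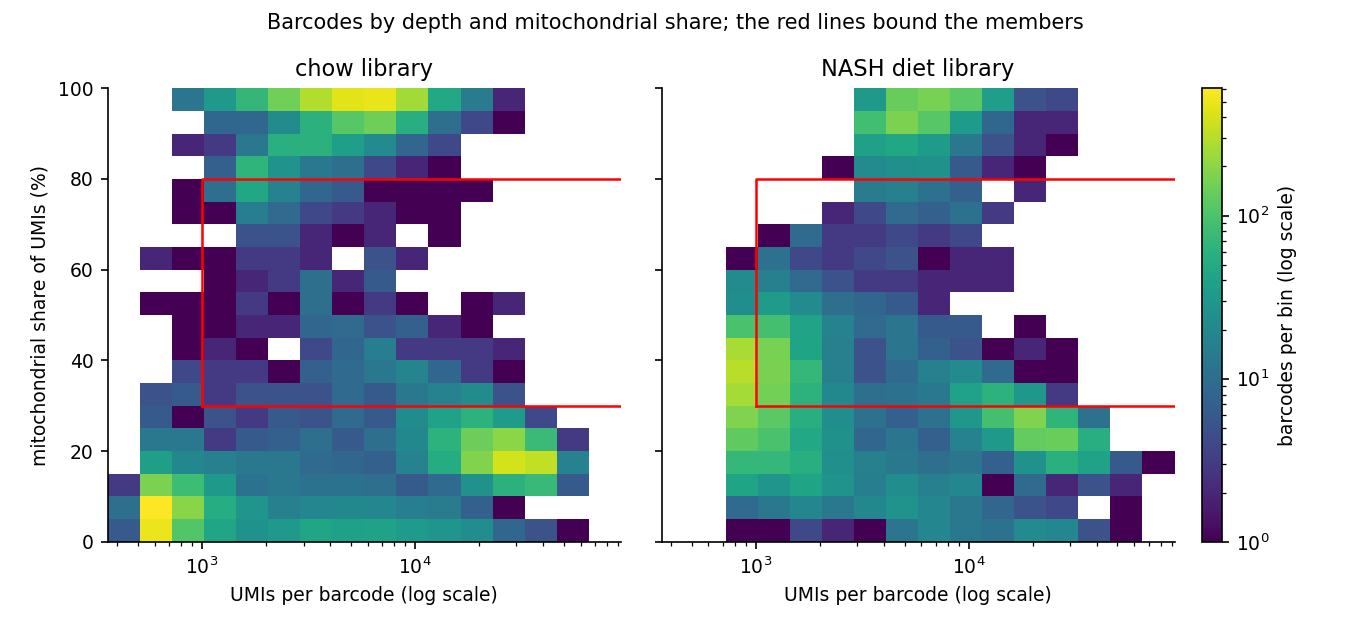
Number of barcodes (colour, log scale) by total UMIs (x axis, log scale) and mitochondrial share of UMIs (y axis, %) in each library, with red lines around the members. The 439 chow members lie along both edges of a sparse middle region, while the 1490 NASH diet members crowd at 1000 to under 2000 UMIs and 30 to 50%.

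Pooled over barcodes, the secreted share did not step at the lower mitochondrial bound of the rule. Depth did on the NASH diet, with a median total of 11068 UMIs at 28 to 30% and 1839 at 30 to 32%, against 13848 and 14697 in chow. Deep barcodes weigh most in pooled shares, so these do not describe the shallow NASH diet barcodes just inside the bound. Secreted plasma proteins took 18.2% of non-mitochondrial UMIs at 28 to 30% mitochondrial share and 19% at 30 to 32% in chow, and 18% and 18.2% on the NASH diet. Across the upper bound (78 to 80% against 80 to 82%) the list took 14.4% and 13.8% in chow, and 14.3% and 18.8% on the NASH diet. The UMI minimum removed 24 barcodes of 30 to 80% in chow and 899 on the NASH diet, where 309 barcodes lay in the 100 UMIs below the minimum and 237 in the 100 UMIs above it, with secreted shares of 8.59% and 8.48%.

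By marker genes the members were hepatocyte-like. At least 3 of 10 hepatocyte markers (among them Alb, serum albumin, and Cps1, the first enzyme of the urea cycle) were detected in 435 of 439 chow members (99.1%) and 1478 of 1490 NASH diet members (99.2%). No other class of cell reached 3 markers in 422 of all 439 chow members and 1357 of all 1490 NASH diet members. Among the rest, Kupffer cell markers reached 3 in 9 chow and 80 NASH diet members, and endothelial markers in 11 and 24. Hepatocyte markers were not limited to hepatocytes, however: at least 3 were also detected in 7 of the 9 chow members with Kupffer cell markers (median 1935 UMIs, against 4387 over all chow members) and in 75 of the 80 on the NASH diet (1323 against 1509 UMIs). Free RNA reaches every droplet, and its part in these detections was not tested. By summed level the 10 markers took 69674 CPM in chow members and 49754 CPM in the matched barcodes described below. Alb, Apoa1, Apoc3, Fgb and Serpinc1 among these markers are also in the list of secreted proteins used below, so this level is not separate from that list. At least 3 hepatocyte markers were also detected in 433 of 437 matched chow barcodes and 1090 of 1105 on the NASH diet, so the count of markers did not set members apart.

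The makeup of the mitochondrial RNA differed with depth inside the set. In chow members of 8000 UMIs or more, mt-Co1, which encodes a catalytic subunit of cytochrome c oxidase, gave 18.2% (18.1 to 18.3) of the mitochondrial UMIs, the same as mt-Atp6 at 18.2% (18.1 to 18.3). In chow members of 1000 to under 2000 UMIs, mt-Co1 gave 12.7% (12.5 to 12.9) and mt-Atp6, a subunit of the ATP synthase, 22.7% (22.4 to 22.9). Shallow members thus held relatively more mt-Atp6 and less mt-Co1. The NASH diet members showed the same order, with mt-Co1 at 18.6% (18.6 to 18.7) in deep and 11.9% (11.8 to 11.9) in shallow ones and mt-Atp6 at 17.8% (17.8 to 17.9) and 23.4% (23.3 to 23.5). The share of mt-Nd1, a complex I subunit, was 5.56% in deep and 3.28% in shallow chow members, and 5.44% and 2.90% on the NASH diet. For mt-Co1, deep members were close to barcodes of at most 30% mitochondrial share, in which it gave 17.9% (chow) and 18.2% (NASH diet). Not every gene was as close. In chow, mt-Nd2 gave 6.52% in deep members and 6.51% in those barcodes, whereas mt-Co3 gave 15.0% and 13.9%. The barcodes of at most 30% were not matched in depth here, and shallow ones were not examined apart.

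Each member set was then compared with barcodes of at most 30% mitochondrial share from the same library, drawn to the same distribution of total UMIs. This gave 437 members against 437 matched barcodes in chow and 1105 against 1105 on the NASH diet. The matched barcodes had median mitochondrial shares of 9.87% and 20.2% and therefore held more non-mitochondrial UMIs (medians of 3878 against 2118 in chow and 1587 against 1071 on the NASH diet). They also held more RNA of most other cell types: summed endothelial markers were 1105 CPM against 215 CPM in chow members and 1003 against 108 CPM in NASH diet members. Kupffer cell markers were 1693 against 215 CPM and 423 against 290 CPM, and neutrophil markers 1788 against 1.23 CPM and 615 against 33.2 CPM. Not every class was higher there: cholangiocyte markers on the NASH diet were at 135 CPM (121 to 149) in members and 75.3 CPM (67.1 to 84.3) in matched barcodes, and at least 3 Kupffer cell markers occurred in 51 of 1105 members and 29 of 1105 matched barcodes. In chow, mesenchymal markers were at 70.8 CPM (58.4 to 85.0) and 63.0 CPM (53.5 to 73.6). In chow members 4 of the 6 neutrophil markers, 9 of the 10 T or NK cell markers and all 6 B cell markers were at 0 UMIs. For this reason each main value was also computed without barcodes that held 3 or more markers of another class.

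In chow, 54 of 2762 genes tested (1.96%) were at least 2-fold higher in members and 218 (7.89%) at least 2-fold lower. Of 2986 genes on the NASH diet, 8 (0.268%) were at least 2-fold higher and 76 (2.55%) lower. The median log2 ratio of all genes was -0.11 and -0.12, and once centred on it the counts were 87 higher and 159 lower in chow, and 13 and 65 on the NASH diet. With the 20 most abundant genes left out of the total they were 95 and 220 in chow. Of the 8 genes higher on the NASH diet, Mgam, Prap1, Reg1, S100g and Slc5a1 are intestinal genes, and the others were C3, Cyp2a5 and Mug1. Prap1, Reg1, S100g and Slc5a1 had most of their UMIs over all NASH diet members in 1 barcode (419 of 484, 161 of 166, 109 of 195 and 117 of 144). Their calls therefore do not describe the members as a set. Mgam had 186 UMIs in 70 of these members, at most 69 in 1 barcode, and 1469 UMIs in the whole chow library.

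Leaving out barcodes of another class changed these counts unequally. They became 46 higher (1.78%) and 174 lower (6.75%) of 2578 genes in chow, and 41 of the 54 higher and 95 of the 218 lower genes were among them. In NASH diet barcodes they became 1 (0.0353%) and 2 (0.0706%) of 2834 genes, Cyp2a5 on the higher side and Gstp1 and Csrp2 on the lower, the last named after its value was seen. Of the genes first counted as lower, 109 in chow and 73 on the NASH diet were then under the minimum level for a test. At 8000 UMIs or more, again without other classes, 55 (2.11%) and 56 (2.15%) of 2603 genes passed 2-fold in chow and 1 (0.036%) and 16 (0.576%) of 2779 on the NASH diet. Most NASH diet genes thus differed by less than 2-fold among hepatocyte-like barcodes.

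The 2560 genes tested in both libraries leaned the same way in each. A log2 ratio above 0 in both was found for 881 (34.4%) and one below 0 in both for 1318 (51.5%), while 56 (2.19%) were at least 2-fold lower in both. The Pearson correlation of the ratios across these genes was 0.85, given as a description, since genes are not independent and both libraries share the difference in non-mitochondrial depth between members and matched barcodes.

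Secreted plasma proteins took a larger share of the RNA in members than in matched barcodes of both libraries. The 28 listed messages made up 18.2% of non-mitochondrial UMIs in chow members against 13.8% in matched barcodes, and 17.1% against 12.1% on the NASH diet. Of the 28 genes, 25 had a log2 ratio above 0 in each library, beside 43.4% of all genes tested in chow and 39.9% on the NASH diet. Their median log2 ratio was 0.60 (range -0.26 to 0.97) in chow and 0.70 (-0.31 to 1.05) on the NASH diet. The size depended on the barcodes compared: it was 0.36 and 0.30 in deep barcodes without other classes, and 0.85 and 1.64 against barcodes of at most 20% mitochondrial share. F2, prothrombin, was at 1671 CPM (1608 to 1735) in chow members and 901 CPM (864 to 939) in matched barcodes, for a log2 ratio of 0.89. Its NASH diet levels were 1153 CPM (1114 to 1193) against 585 CPM (562 to 609), for a log2 ratio of 0.97. Apoh, a lipid-binding plasma glycoprotein, was at 2376 against 1265 CPM in chow and 1964 against 1066 CPM on the NASH diet. Mug1, a protease inhibitor, was at 1505 against 768 CPM and 1855 against 922 CPM. For F2 the intervals of members and matched barcodes did not overlap in either library, but they cover counting error of pooled UMIs only. They leave out the spread between barcodes, and genes named from a list were picked by the size of their ratios.

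The higher share was seen across barcodes, although the spreads overlapped. Without barcodes of another class, the secreted share had a median of 16.1% per barcode in the 415 chow members (10th to 90th percentile 10.6 to 24.2%) against 11.8% (5.22 to 26.0%) in as many matched barcodes. The 1016 NASH diet members had a median of 10.2% (5.61 to 23.6%) against 7.82% (4.19 to 19.5%). The 10th percentile was thus higher in members of both libraries, while the 90th was higher in members on the NASH diet only. The acute-phase list shares Fga, Fgb, Fgg and Hpx with the secreted list, so the lists are not independent. Acute-phase messages had a median log2 ratio of 0.33 over 15 genes in chow (11 above 0) and 0.62 over 13 genes on the NASH diet (13 above 0). C3, the central complement component and part of the secreted list only, was at 4874 against 2998 CPM in chow and 1821 against 878 CPM on the NASH diet, log2 ratios of 0.70 and 1.05.

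Chaperones of the endoplasmic reticulum lumen were higher as well. Of the 15 listed endoplasmic reticulum and integrated stress genes, 8 reached the minimum level for a test, with medians of 0.31 (6 of 8 above 0) in chow and 0.44 (7 of 8) on the NASH diet. Hspa5, the main lumenal chaperone, was at 1104 against 733 CPM in chow and 1263 against 788 CPM on the NASH diet, log2 ratios of 0.59 and 0.68. Hsp90b1, its partner chaperone, had log2 ratios of 0.57 and 0.54, and Pdia4, a disulfide isomerase, 0.54 and 0.64.

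The first 35 codons of 6 genes are shown as examples of the protein starts compared next; the 6 were chosen with their direction known and support nothing by themselves. F2 and Apoh encode secreted proteins and Cyp2e1 an enzyme anchored in the membrane of the endoplasmic reticulum, and all were higher in members. Rpl35, Psmb5 and Fabp1 encode a ribosomal protein, a proteasome subunit and a fatty acid carrier of the cytosol, and all were lower. The sequences are the first 105 coding bases, 5′ to 3′ on the coding strand, of the longest complete coding sequence of each gene in GENCODE M21 (GRCm38), and the capitals mark the codons of the most hydrophobic run of 10 residues (highest mean on the Kyte-Doolittle scale) found among the first 35.
F2: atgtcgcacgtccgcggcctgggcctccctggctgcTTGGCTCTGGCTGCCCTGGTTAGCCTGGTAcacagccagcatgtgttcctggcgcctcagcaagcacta
Apoh: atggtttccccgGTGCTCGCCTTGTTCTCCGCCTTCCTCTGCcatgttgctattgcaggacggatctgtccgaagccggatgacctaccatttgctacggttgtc
Cyp2e1: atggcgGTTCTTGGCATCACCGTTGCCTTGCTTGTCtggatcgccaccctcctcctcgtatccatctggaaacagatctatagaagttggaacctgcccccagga
Rpl35: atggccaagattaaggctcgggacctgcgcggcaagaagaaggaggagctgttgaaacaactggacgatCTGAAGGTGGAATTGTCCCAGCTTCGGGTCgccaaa
Psmb5: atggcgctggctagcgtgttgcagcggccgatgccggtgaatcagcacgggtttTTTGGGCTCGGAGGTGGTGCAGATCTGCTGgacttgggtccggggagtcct
Fabp1: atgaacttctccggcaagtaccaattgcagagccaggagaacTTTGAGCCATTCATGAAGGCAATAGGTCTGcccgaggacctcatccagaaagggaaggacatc

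The capitalized run had a mean hydropathy of 2.82 in F2 (codons 13 to 22), 2.65 in Apoh (5 to 14) and 2.92 in Cyp2e1 (3 to 12). It reached only 0.36 in Rpl35 (24 to 33), 1.09 in Psmb5 (19 to 28) and 0.82 in Fabp1 (15 to 24). The genes lie at chr2:91625320-91636414 (F2, minus strand), chr11:108343354-108414396 (Apoh, plus strand), chr7:140763739-140774987 (Cyp2e1, plus strand), chr2:39001580-39005624 (Rpl35, minus strand), chr14:54614119-54618022 (Psmb5, minus strand) and chr6:71199827-71205023 (Fabp1, plus strand), and the bases shown are exonic coding sequence joined across introns where there are any.

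Genes with a hydrophobic start were shifted upward as a group among all genes with a coding sequence, 2731 of 2762 (98.9%) in chow and 2956 of 2986 (99.0%) on the NASH diet. Genes whose most hydrophobic run reached a mean of 2.0, called a hydrophobic start here, had a median log2 ratio of 0.30 in chow (661 genes, quartiles -0.20 and 0.61, 66.9% above 0), and the other 2070 genes a median of -0.21 (quartiles -0.60 and 0.17, 35.9% above 0). NASH diet medians were 0.32 (646 genes, 71.1% above 0) and -0.19 (2310 genes, 31.3%). The classes overlapped, and many genes of each went the other way. The class medians came from the whole matched sets and were not computed within bands of depth or mitochondrial share. Whether the shift held in each band was therefore not tested. A hydrophobic start covers both cleaved signal peptides and membrane anchors, and was not checked against known signal peptides. With genes of the secreted, membrane enzyme and acute-phase lists left out, genes with a hydrophobic start still had medians of 0.27 (613 genes) and 0.28 (600 genes). Without barcodes of another class the medians were 0.38 and -0.12 in chow, and 0.32 and -0.15 on the NASH diet. Genes that lacked a hydrophobic start but held a hydrophobic stretch of 19 residues farther in (mean of 1.6 or more) had medians of 0.15 (461 genes) and 0.06 (468 genes), against -0.29 (1609) and -0.23 (1842) for genes with neither.

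Protein length went with the ratio too. In chow the median log2 ratio was -0.61, -0.23, 0.07 and 0.24 over 4 equal groups of genes from the shortest proteins (37 to 202 residues) to the longest (529 to 7717), and on the NASH diet it was -0.41, -0.19, 0.01 and 0.11. Long proteins come from long messages, which were not measured apart from protein length. Within each length group, genes with a hydrophobic start had the higher median, although among the shortest proteins only 30.4% of them in chow and 34.4% on the NASH diet were above 0. In chow the pair was -0.29 against -0.65 among the shortest proteins and 0.53 against 0.16 among the longest, and on the NASH diet -0.20 against -0.43 and 0.49 against 0.05.

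**Figure D2:**
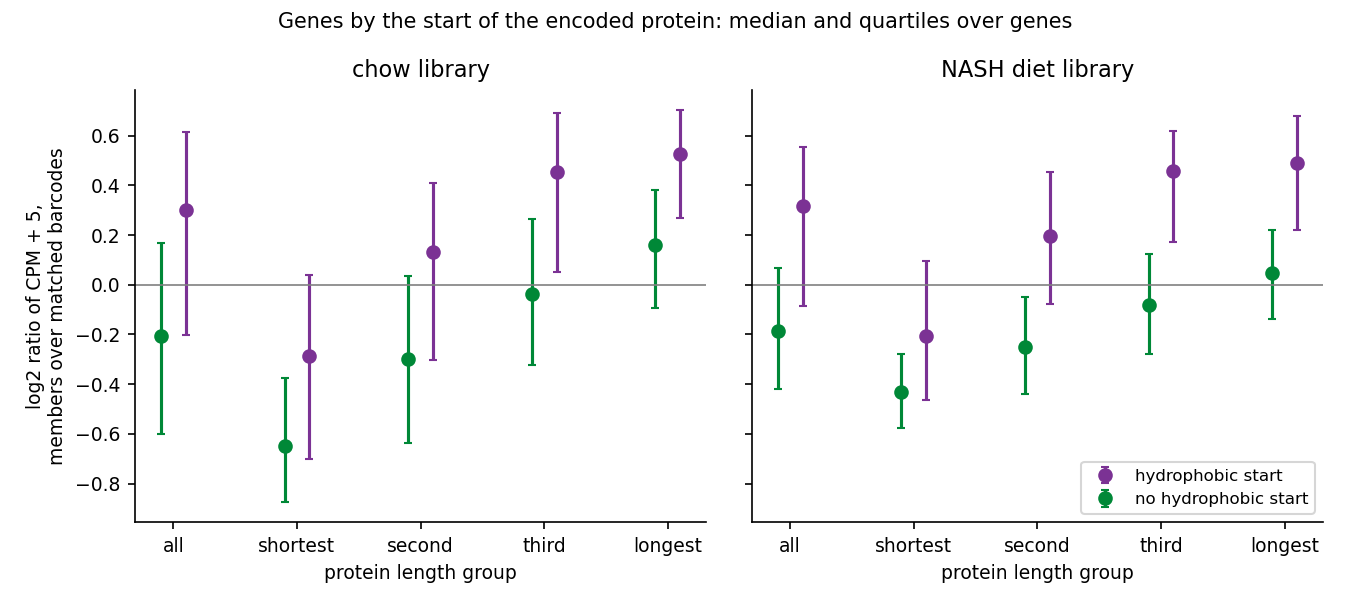
Log2 ratio of CPM + 5 in members over matched barcodes (y axis) for genes with and without a hydrophobic start, over all genes and in 4 groups of protein length (x axis), with points at the median over genes and bars from the lower to the upper quartile. Genes with a hydrophobic start lie higher at every length, and both classes lie higher for longer proteins, from -0.29 to 0.53 and from -0.65 to 0.16 in chow.

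Enzymes of the endoplasmic reticulum membrane, which carry out drug, steroid and bile acid oxidation and conjugation, were higher in the pooled members as well, though not at every depth. The 16 listed messages took 1.89% against 1.10% of non-mitochondrial UMIs in chow and 1.59% against 1.23% on the NASH diet, with medians of 0.60 and 0.61 (0.98 and 1.31 against barcodes of at most 20%) and 14 of 16 genes above 0 in each. In chow, 7 of the 16 were at least 2-fold higher. At 1000 to under 2000 UMIs, without other classes, the NASH diet direction turned: the list took 1.01% (0.979 to 1.04) in members against 1.08% (1.05 to 1.10) in matched barcodes. Log2 ratios of the summed list over the 3 depth bands, from shallow to deep, were 0.089, 0.39 and 0.74 in chow and -0.095, 0.25 and 0.36 on the NASH diet. Cyp2e1, an ethanol-oxidizing cytochrome P450, was at 3501 CPM (3411 to 3594) against 1027 CPM (988 to 1068) in chow, a log2 ratio of 1.76, and at 2107 CPM (2054 to 2160) against 1164 CPM (1131 to 1198) on the NASH diet, 0.85. Cyp7b1, an oxysterol hydroxylase, was at 777 against 386 CPM and 338 against 183 CPM. Conjugating enzymes outside the list, named because they were among the highest in both libraries, lay alongside: Ugt2b34 at 1.18 and 0.87 and Ugt2b5 at 0.96 and 0.86. Ces2e, a carboxylesterase of the same membrane system, had 0.96 and 0.86.

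Several of these enzymes belong to the pericentral program, the genes that hepatocytes near the central vein express most. Cyp2e1 and Cyp1a2 are in both the membrane enzyme and the pericentral list, so these lists are not independent. The pericentral list gave the largest list difference in chow. The list took 1.09% of non-mitochondrial UMIs in chow members against 0.454% in matched barcodes, with a median log2 ratio of 1.62 over the 11 of its 13 genes that were tested, 10 of 11 above 0 and 9 at least 2-fold higher. On the NASH diet the shares were 0.543% and 0.491%, the median was 0.35 (0.63 with another random draw of barcodes), 8 genes were above 0 and 1 was 2-fold higher. Averaged over barcodes in place of pooled UMIs, the chow median was 0.95. Slc1a2, a glutamate transporter of perivenous hepatocytes, was at 321 CPM (294 to 349) against 32.9 CPM (26.2 to 40.8) in chow, and at 92.7 against 92.4 CPM on the NASH diet, log2 ratios of 3.28 and 0.47 without other classes. Cyp1a2 was at 602 against 152 CPM and Cyp3a11 at 2812 against 784 CPM in chow, log2 ratios of 1.95 and 1.84, whereas their NASH diet ratios were 0.52 and 0.46. Cyp2a5, a coumarin hydroxylase, was the only gene at least 2-fold higher in both libraries (1 of 2560, 0.0391%), at 119 against 15.6 CPM in chow and 145 against 68.1 CPM on the NASH diet, and its counts are uncertain because close paralogs share sequence. Cyp2c37 and Cyp2c54, with the same reservation, had log2 ratios of 2.39 and 2.15 in chow and 0.25 and 0.73 on the NASH diet. Slc13a3, a dicarboxylate transporter, had 2.21 and 0.47.

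The pericentral difference in chow sat in the deep barcodes, and on the NASH diet its direction changed with depth. At 8000 UMIs or more, without barcodes of another class, the log2 ratio of the summed list was 1.67, against 0.045 at 2000 to under 8000 UMIs and -0.26 under 2000. The NASH diet list took 0.643% (0.631 to 0.655) in deep members against 0.503% (0.494 to 0.513), but 0.369% (0.353 to 0.386) against 0.551% (0.536 to 0.566) at 2000 to under 8000 UMIs, log2 ratios of 0.35 and -0.58, and the ratio was 0.012 under 2000. Among those deep barcodes, 52 of 122 chow members (42.6%, 33.7 to 51.9) gave at least 1% of their RNA to the list, against 23 of 122 matched barcodes (18.9%, 12.3 to 26.9). NASH diet barcodes gave 39 of 210 (18.6%, 13.6 to 24.5) against 34 of 210 (16.2%, 11.5 to 21.9). Periportal genes, the opposite zone, had a list median of -0.19 in chow and 0.13 on the NASH diet, and -0.62 and -0.04 in deep barcodes without another class. Of the deep barcodes drawn, more chow members than matched barcodes thus gave at least 1% of their RNA to the pericentral list. On the NASH diet the shares were closer together. The intervals cover the counting of barcodes within 1 library, so the difference between diets was not tested.

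Ribosomal protein messages were the list that stood lowest in chow. All 58 tested were below 0 in both libraries, beside 56.6% and 60.1% of all genes, with medians of -0.93 in chow and -0.62 on the NASH diet. Their share was 2.60% against 4.90% of non-mitochondrial UMIs in chow and 3.26% against 4.95% on the NASH diet, and 22 of the 58 were at least 2-fold lower in chow and 0 on the NASH diet. Rpl35, of the large subunit, was at 129 CPM (112 to 148) against 360 CPM (337 to 384) in chow and 203 CPM (187 to 220) against 357 CPM (339 to 376) on the NASH diet, log2 ratios of -1.44 and -0.80. Rpl9, also of the large subunit, had -1.34 and -0.82, and Rps7, of the small subunit, -1.24 and -0.80. Per barcode, without other classes, the median share was 2.47% (10th to 90th percentile 1.21 to 7.13%) against 5.03% (1.96 to 9.34%) in chow and 4.33% (1.55 to 7.95%) against 5.89% (2.17 to 8.46%) on the NASH diet. The list medians were -0.93 and -0.53 without other classes, -0.57 and -0.32 when averaged over barcodes, and -1.12 and -1.07 against barcodes of at most 20% mitochondrial share.

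Other short, soluble subunits were lower in the same barcodes. Proteasome subunits, which form the cell's main protein-degrading complex, had medians of -0.52 (20 of 22 below 0, 3 of them 2-fold) in chow and -0.54 (21 of 22) on the NASH diet. Psmb5, a catalytic subunit, was at 93.0 against 221 CPM in chow and 128 against 243 CPM on the NASH diet, and Psma7 had log2 ratios of -1.01 and -0.66. Nuclear-encoded proteins of the mitochondrial ribosome were below 0 wherever tested, 27 of 27 genes (28 were listed) in chow (median -0.81, 8 of them 2-fold) and 26 of 26 on the NASH diet (median -0.51). Mrpl33 had log2 ratios of -1.20 and -0.74, and Mrps18c -1.18 and -0.78.

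Nuclear-encoded parts of the respiratory chain were lower too, unlike the mitochondrially encoded ones by which the barcodes were chosen. The 60 nuclear-encoded oxidative phosphorylation genes had medians of -0.65 in chow and -0.35 on the NASH diet, with 55 of 60 below 0 in each and 12 at least 2-fold lower in chow. Their share was 1.84% against 2.83% of non-mitochondrial UMIs in chow and 2.61% against 3.28% on the NASH diet. Ndufb2, a small complex I subunit, was at 104 against 270 CPM in chow and 179 against 287 CPM on the NASH diet, log2 ratios of -1.33 and -0.67. Atp5h, an ATP synthase subunit, was at 243 against 558 CPM and 404 against 720 CPM, log2 ratios of -1.18 and -0.83. Mitochondrial matrix enzymes, the larger catalysts of fat oxidation and the urea cycle, did not share this shift: their medians were 0.09 (15 of 26 above 0) and -0.05 (11 of 26). Within that list Cps1 had log2 ratios of 0.44 and 0.77 (-0.16 in deep chow barcodes without other classes) and Sardh, sarcosine dehydrogenase, 0.93 and 0.50, whereas Etfb, an electron carrier, had -0.97 and -0.47. The list of mitochondrial gene expression, import and chaperones had medians of -0.05 and 0.01, with Tomm20, a receptor for imported proteins, at -0.62 and -0.34.

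Cytosolic metabolic enzymes leaned lower, by less. The 28 genes took 2.30% against 3.1% of non-mitochondrial UMIs in chow and 3.81% against 4.81% on the NASH diet, with medians of -0.24 (8 of 28 above 0) and -0.11 (7 of 28). Fabp1, the abundant fatty acid carrier, was at 4364 CPM (4263 to 4467) against 9229 CPM (9110 to 9349) in chow and 11426 CPM (11303 to 11551) against 18310 CPM (18178 to 18442) on the NASH diet, log2 ratios of -1.08 and -0.68. Gapdh, a glycolytic enzyme, was at 611 against 1151 CPM and 1080 against 1552 CPM. Gstp1, a glutathione transferase, had the lowest ratios of the list, -2.03 and -1.07. Among antioxidant genes, with medians of -0.33 and -0.20, Mt1, a metallothionein, was at 5227 against 10308 CPM in chow and 3148 against 4785 CPM on the NASH diet, and Txn1, thioredoxin, had log2 ratios of -1.25 and -0.76.

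**Figure D3:**
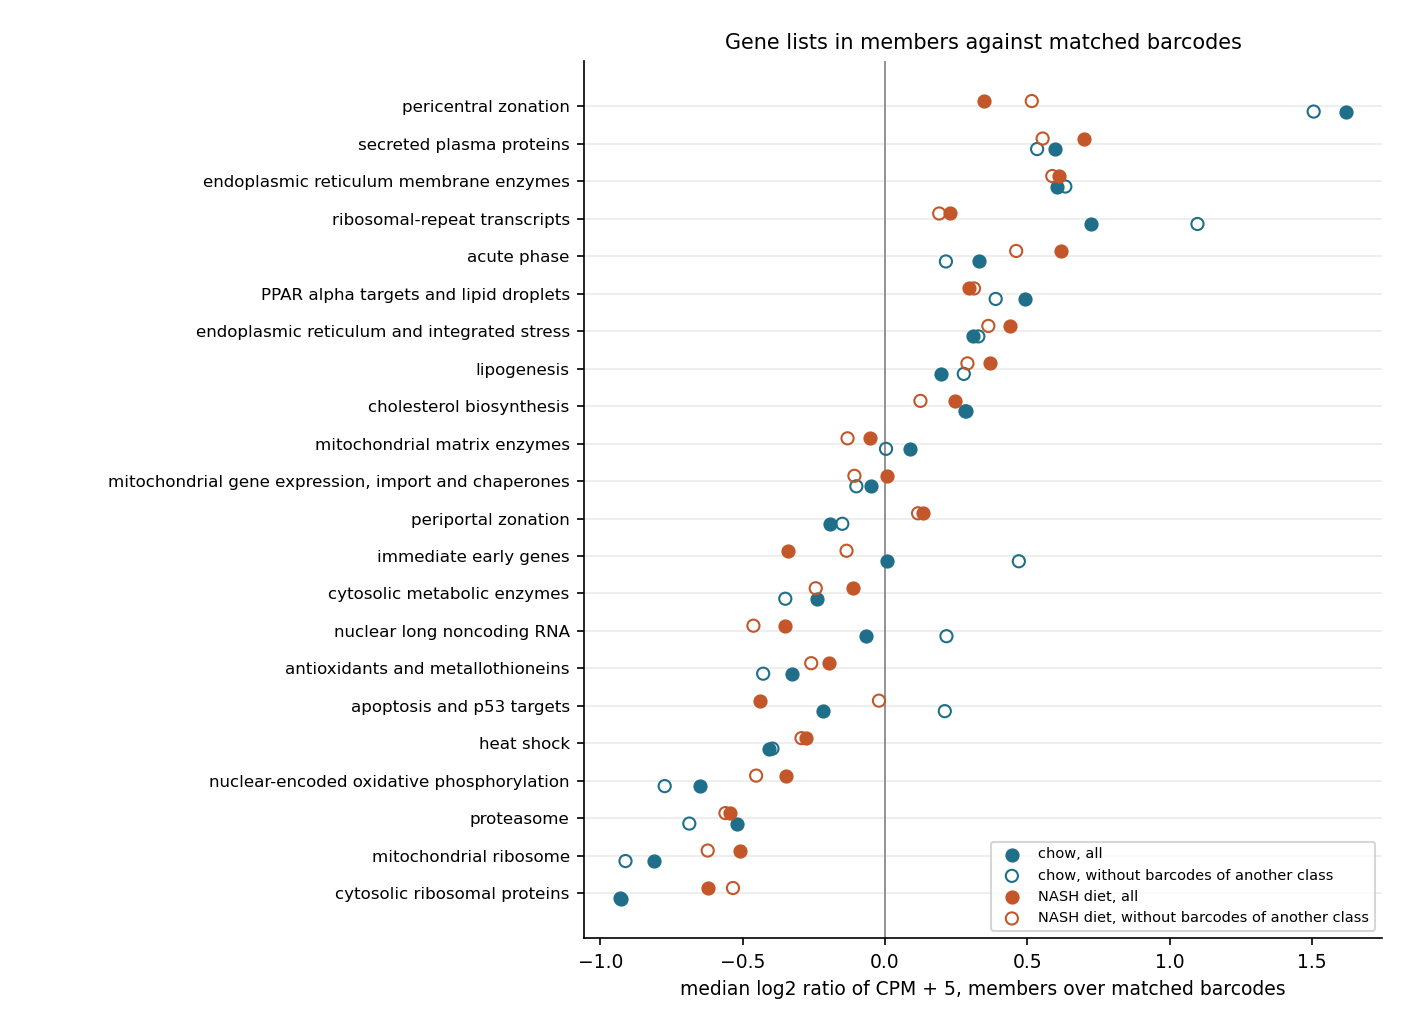
Median log2 ratio of CPM + 5 (x axis) in members over matched barcodes for each of 22 gene lists (y axis), filled for all barcodes and open without barcodes of another class. Pericentral, secreted and endoplasmic reticulum membrane lists lie right of 0 in both libraries, and ribosomal, proteasomal and oxidative phosphorylation lists lie left of it; the nuclear long noncoding RNA and apoptosis lists change side in chow between filled and open points.

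Ribosomal-repeat transcripts and nuclear long noncoding RNA gave no single answer. Gm42418, AY036118 and Gm26917 are annotated over ribosomal RNA repeats, and their 3-gene list had medians of 0.72 in chow and 0.23 on the NASH diet (the latter was -0.13 at its lowest alternative). Gm42418 was at 2480 against 1500 CPM in chow and 10087 against 6176 CPM on the NASH diet, whereas AY036118 was at 92.3 against 187 CPM and 795 against 677 CPM. Lars2, a mitochondrial leucine-tRNA ligase whose levels followed it across bands of mitochondrial share, was at 337 against 143 CPM and 866 against 443 CPM. Malat1, a nuclear long noncoding RNA, was at 1701 against 2742 CPM in chow and 4080 against 5595 CPM on the NASH diet in the pooled sets, log2 ratios of -0.69 and -0.45. In deep barcodes without other classes its ratios were 0.96 and 0.23, and per barcode its list had median shares of 0.0767% and 0.0885% in members against 0% in the matched barcodes of both libraries, so no direction held throughout. Its list had medians of -0.07 and -0.35, and in chow the sign changed in 10 of 17 alternatives (0.96 in deep barcodes without another class).

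Depth divided this group. At 1000 to under 2000 UMIs, without other classes, nuclear long noncoding RNA took 0.258% of non-mitochondrial UMIs in chow members (0.212 to 0.311) against 0.00928% in matched barcodes (0.00480 to 0.0162, 12 UMIs). Ribosomal-repeat transcripts took 1.54% (1.42 to 1.66) against 0.340% (0.309 to 0.374) there. Shallow chow members were thus richer in both than shallow barcodes of low mitochondrial share, which in chow had a median mitochondrial share of 7.90% and 1479.5 non-mitochondrial UMIs against 407 in the members.

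Of the other lists, those of lipid metabolism leaned higher in members and heat shock genes lower. Cholesterol synthesis genes were higher, with medians of 0.28 (15 of 18 tested above 0, of 22 listed) in chow and 0.25 (5 of 5 tested) on the NASH diet, as were PPAR alpha targets (0.49 and 0.30) and lipogenesis genes (0.20 and 0.37). The lipogenesis list differed most at 2000 to under 8000 UMIs without other classes, where its share was 0.318% (0.302 to 0.336) against 0.146% (0.138 to 0.155) in chow and 1.26% (1.23 to 1.29) against 0.593% (0.577 to 0.609) on the NASH diet. In deep barcodes its log2 ratios were -0.025 and 0.26, so the difference was not present at every depth. Cpt1a, the gate of fatty acid entry into mitochondria, had log2 ratios of 0.72 and 0.44, Creb3l3, a liver transcription factor held in the endoplasmic reticulum membrane, 0.75 and 0.60, and Elovl5, a fatty acid elongase of that membrane, 0.67 and 0.65. Heat shock genes leaned lower (-0.41 and -0.28), with Hspb1 at -1.23 and -0.74. Immediate early genes, which answer stress and dissociation within minutes, had medians of 0.01 and -0.34 (0.47 and -0.13 without other classes), and apoptosis and p53 targets -0.22 and -0.44, with signs that changed in 4 and 2 of 17 alternatives.

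Among the genes lowest in members were many of other cell types. Ptprb, Cdh5 and Plxnd1, of endothelial cells, had log2 ratios of -2.55, -2.48 and -2.44 in chow and -3.06, -2.75 and -2.72 on the NASH diet, and Mrc1, a mannose receptor of sinusoidal endothelium and macrophages, -2.40 and -3.05. Without barcodes of another class the values were 0.32 and 0.60 for Ptprb, -0.11 and -0.36 for Cdh5, 0.17 and -0.04 for Plxnd1, and 0.06 and 0.23 for Mrc1. In chow members Il1b, an inflammatory cytokine, had 0 UMIs where the matched set had 180, and S100a6 had 0 where it had 131. Taking 3 UMIs per set as the floor, these were at least 39.1-fold and at least 28.5-fold lower. Without barcodes of another class, Il1b had 0 UMIs in both chow sets, and the log2 ratio of S100a6 was -1.76.

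Bands of mitochondrial share showed where members stood between the barcodes below and above them. In chow, without other classes, ribosomal protein messages took 7.91%, 3.73% and 3.34% at 0 to 10, 10 to 20 and 20 to 30%, then 2.36%, 2.45%, 2.26% and 2.80% from 30 to 70%, and 5.46% at 70 to 80%. Secreted proteins took 8.04%, 18.5% and 17.5% below 30%, 18.8%, 18.9%, 18.8% and 16.7% from 30 to 70% and 13.5% at 70 to 80%. In secreted share, chow members of 30 to 70% were thus close to chow barcodes of 10 to 30% and well above only those of 0 to 10%. In these 2 lists, chow members of 30 to 60% had similar shares, and those of 70 to 80% were closer to barcodes above 80% (5.79% and 14.1% at 80 to 90%). On the NASH diet the break lay elsewhere: ribosomal proteins took 3.06% at 30 to 40%, 4.72% at 40 to 50% and 2.13% at 70 to 80%, and secreted proteins 17.6%, 12.9% and 20.9%.

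Ribosomal-repeat transcripts were higher toward the upper end of the range. They took 0.16% at 30 to 40% and 1.70% at 70 to 80% in chow, and 0.81% and 3.22% on the NASH diet, reaching 7.47% and 11.4% above 90%. By gene, Gm42418 went from 1385 CPM at 30 to 40% to 15500 CPM at 70 to 80% in chow and from 7240 to 29216 CPM on the NASH diet, and Lars2 from 123 to 3023 CPM and from 536 to 3118 CPM. Malat1 went from 1934 to 15694 CPM on the NASH diet. F2 went the other way in chow, from 1728 CPM at 30 to 40% to 772 CPM at 70 to 80%, as did Cyp2e1, from 3816 to 1492 CPM. The bands also differ in depth, since chow members of 70 to 80% had a median of 1961.5 UMIs and NASH diet members of 70 to 80% one of 5586.5, and the part of depth in these profiles was not tested.

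**Figure D4:**
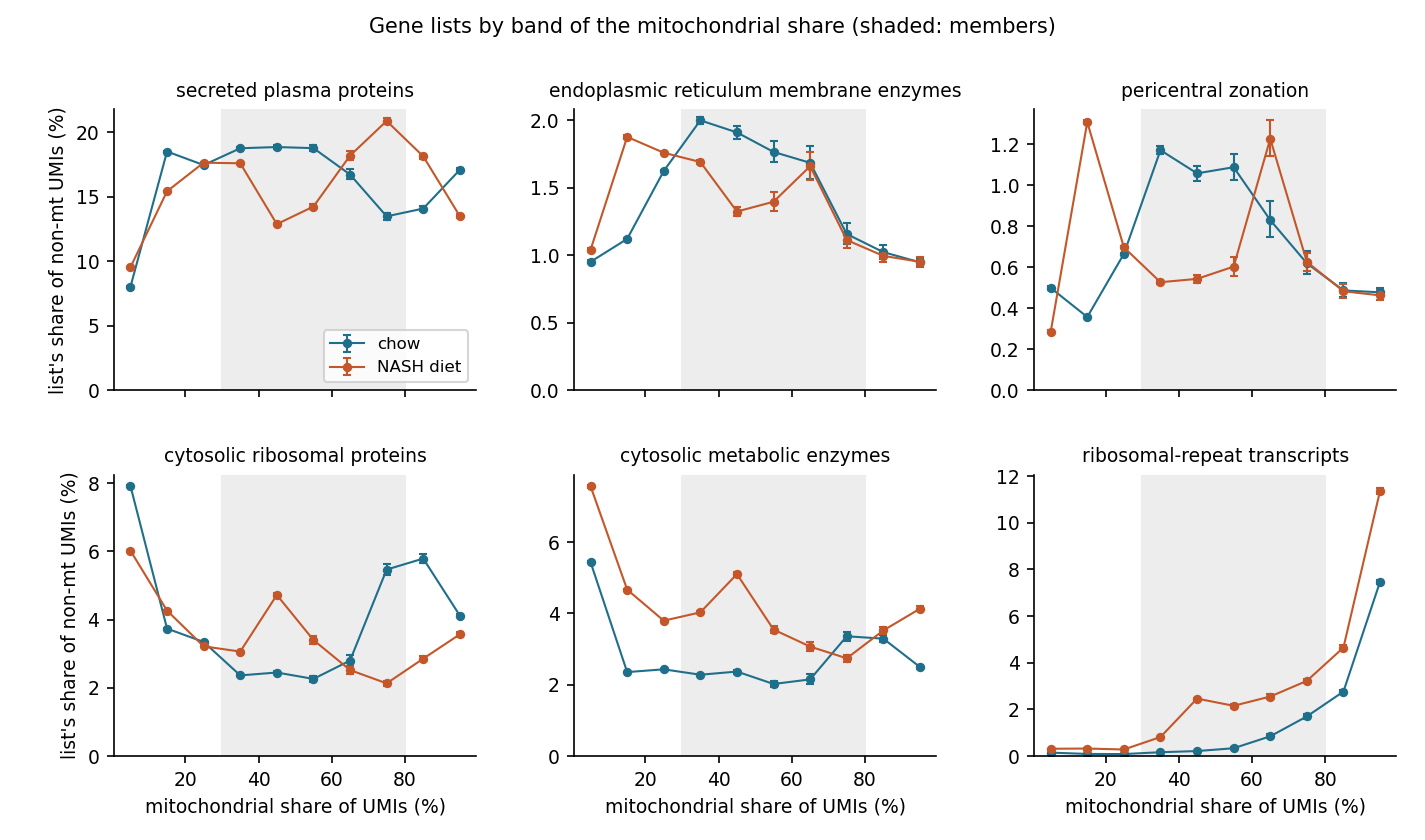
Share of non-mitochondrial UMIs taken by 6 gene lists (y axis, %) in bands of the mitochondrial share (x axis, %), at least 1000 UMIs and without barcodes of another class, with exact 95% counting intervals as bars and the range of the members shaded. Ribosomal proteins in chow dip between 30 and 70% and stand at 5.46% at 70 to 80%, and ribosomal-repeat transcripts climb through the shaded range in both libraries.

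Matched within bands of depth, the ribosomal and secreted lists kept their direction, though not their size. The ribosomal log2 ratio of sums, without other classes, was -0.15, -1.40 and -0.75 at 1000 to under 2000, 2000 to under 8000 and 8000 or more UMIs in chow, and -0.09, -0.81 and -0.57 on the NASH diet. For secreted proteins it was 0.11, 0.67 and 0.23 in chow and 0.14, 0.97 and 0.18 on the NASH diet. The middle band held the largest differences, and there the matched barcodes had median mitochondrial shares of only 4.88% (chow) and 14.3% (NASH diet). In the shallow band members and matched barcodes differed least in these 2 lists. For Fabp1 and Alb, levels differed more between depths than between members and barcodes of at most 30%. Fabp1 was at 28756 CPM in NASH diet members under 2000 UMIs and 7353 CPM in those of 8000 or more, and at 34344 and 14136 CPM in the barcodes of at most 30%. Alb was at 13935 and 66846 CPM in those members and at 10253 and 47638 CPM in the barcodes of at most 30%.

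At equal depth, members held nearly as many genes as matched barcodes. Thinned to 200 non-mitochondrial UMIs, they held a median of 146 genes against 151 in matched chow barcodes, and 157 against 160 on the NASH diet. Before thinning the medians were 889 against 1382 genes and 606 against 812.

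Between diets, acute-phase, cholesterol synthesis and Cyp4a genes differed alike in members and in barcodes of at most 30% mitochondrial share, whereas pericentral genes, AY036118 and Crip1 did not. Of 2819 genes, 173 (6.14%) were at least 2-fold higher in NASH diet than in chow members and 125 (4.43%) lower, with a median of 0.26 over all genes; centred on that median the counts were 89 and 176. In the matched barcodes of at most 30%, 127 (4.22%) and 115 (3.82%) of 3009 genes passed the same limits. With 1 library per diet, diet, mice and preparation cannot be told apart.

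Acute-phase messages were lower in NASH diet members in 15 of 15 genes, beside 29.8% of all genes tested, and 14 of the 15 were at least 2-fold lower, with a median of -1.89 (-2.12 in matched barcodes of at most 30%). Saa2, a serum amyloid, was at 16617 CPM (16420 to 16817) in chow members and 375 CPM (353 to 397) in NASH diet members, giving -5.45 beside -6.10 as log2 ratios, and Saa1, which shares reads with it, at 16668 and 832 CPM. Cholesterol synthesis genes were lower in 18 of 18 tested, 15 of them at least 2-fold, with a median of -2.34 (-2.47). Idi1, an isomerase of the isoprenoid steps, was at 422 CPM (391 to 455) and 10.5 CPM (7.23 to 14.7), giving -4.78 beside -4.80. Cyp4a10, a fatty acid hydroxylase and PPAR alpha target with close paralogs, was at 22.1 CPM (15.5 to 30.6) and 478 CPM (454 to 502), 4.15 beside 3.90. Apoa4, an apolipoprotein, was at 108 CPM (92.8 to 125) and 1302 CPM (1263 to 1343), 3.53 beside 2.97. Each pair of log2 ratios has the same sign and lies well past 2-fold in both sets.

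Pericentral genes differed more between diets in members than in matched barcodes. In members, 10 of 11 tested were lower on the NASH diet and 7 at least 2-fold, with a median of -1.19, whereas in matched barcodes of at most 30% 6 of 11 were lower, beside 30.2% of all genes, with a median of -0.08. Slc1a2 had a log2 ratio of -1.81 in members and 1.36 in the matched barcodes, Cyp2c37 -1.99 and 0.23, Cyp1a2 -1.66 and -0.17, Cyp3a11 -1.60 and -0.16, and Cyp2e1 -0.80 and 0.18. The list stayed lower in members of at least 8000 UMIs (-1.32) but was -0.20 in members of 50 to 80% mitochondrial share, and Slc1a2 was 0.03 there. Periportal genes were at 0.97 in members and 0.46 in matched barcodes. The difference between the diet ratios of members and of matched barcodes was not tested. Apart from which members were drawn, it restates the within-library pericentral ratios given above, larger in chow than on the NASH diet, and is not a separate result.

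Some other list differences between diets were smaller in deep members or not found there. Ribosomal proteins had a median of 0.50 and the proteasome 0.43 over all members, but -0.07 and -0.08 in members of at least 8000 UMIs, and oxidative phosphorylation had 0.60 and 0.24. The NASH diet members held far more barcodes under 2000 UMIs, as given above. AY036118 had a log2 ratio of 3.37 in members and 1.83 in matched barcodes, and Crip1, a small zinc-binding protein, 3.13 and 0.52.

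**Figure D5:**
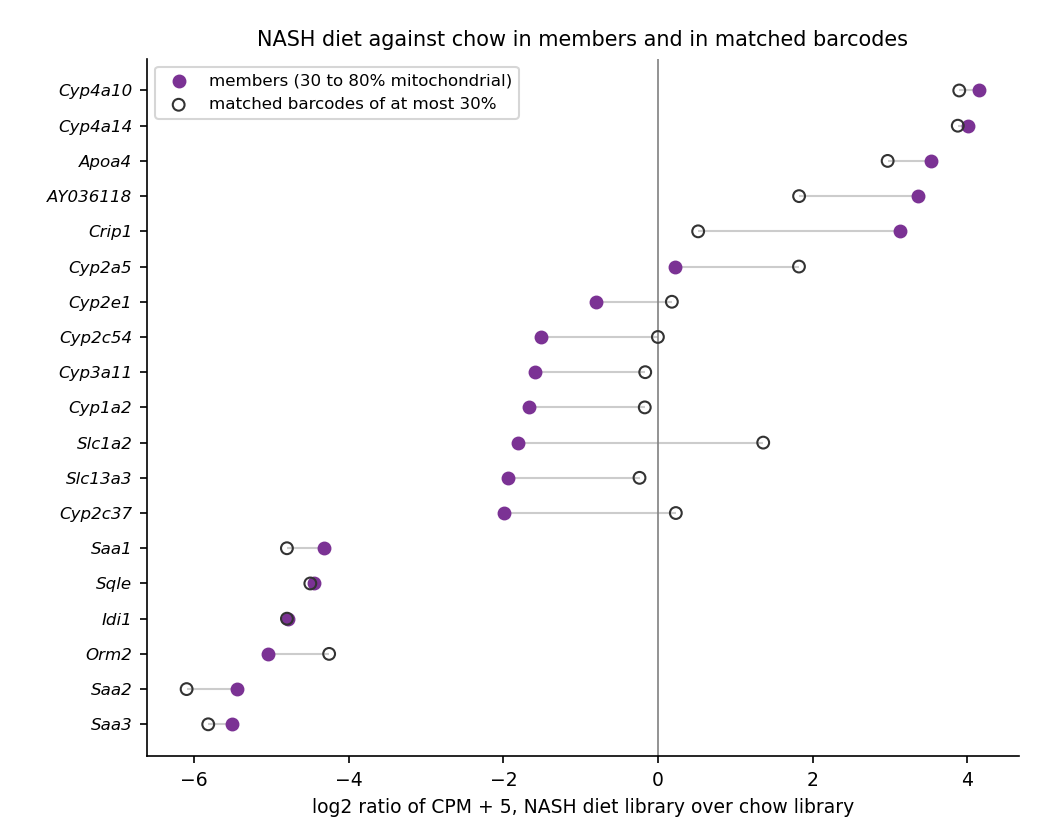
Log2 ratio of CPM + 5, NASH diet library over chow library (x axis), of genes named between diets or among the pericentral genes (y axis), filled in members and open in matched barcodes of at most 30% mitochondrial share. Filled and open points lie close for Cyp4a10, Saa2 and Idi1 and apart for the pericentral genes, from -1.81 to 1.36 for Slc1a2.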

How the data were processed

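The authors deposited 1 gene-by-barcode matrix of UMI counts for each of 2 libraries, with whole-number counts and no normalization. Per the submitters' processing notes these were made with Cell Ranger 3.1.0 on mm10, with Seurat named for later steps, and per the file headers the matrices were written by software version 3.0.2. Any filter on barcodes before deposit is not stated in the notes. Every column was assigned to its library, and 0 columns were left unmatched. The members, gene lists and tests were chosen with earlier results of these data known.

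Members were compared with barcodes of at most 30% mt- UMIs after equal draws from both sets in bins of 0.25 log2 units of total UMIs (seed 1). The mt- genes were removed, UMIs were pooled over barcodes and scaled to CPM, and log2 ratios took a pseudocount of 5 CPM, so changes of low genes are understated. Genes of at least 50 CPM in either set were tested, and a 2-fold difference was counted. Pooled ratios weight deep barcodes most. Counts carry exact Poisson and shares exact binomial 95% intervals, which cover counting error only.

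A barcode was assigned to another class at 3 or more of that class's markers, over 11 classes in all. The text names the 10 genes highest and 10 lowest in both libraries, 5 each way per library, 3 per list over 22 lists, 6 each way between diets and the mt- genes, passing over genes with more than 50% of the UMIs of a set in 1 barcode; not all of them are given values, and the 5 intestinal genes and Csrp2 were added after their values were seen. The 6 sequences were taken from named genes. Coding sequences came from GENCODE M21, the longest complete one per gene, since a protein table was not used here. Families with near-identical members (Saa, Mup, Cyp2a, Cyp2c, Cyp4a) are uncertain. The ratio and its counts were tested on simulated data. These were pooled counts drawn from the matched profile with known changes and no spread between barcodes. They do not test what such spread does to the counts. Python 3.11.15, numpy 2.4.6, pandas 2.3.3, scipy 1.17.1, scanpy 1.11.5 (Scrublet) and matplotlib 3.10.9 were used. Alternatives are in the closing section.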

Additional observations from a re-analysis of the deposited data

How the results depend on the processing

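No paired analysis was possible because each diet had 1 library, so no library could be left out either. Of 44 list medians of members against matched barcodes, 31 kept their sign in all 17 alternatives, among them the secreted, membrane enzyme, pericentral, ribosomal, mitoribosomal, proteasome and oxidative phosphorylation lists in both libraries; of 200 gene ratios 148 did. The bands under 8000 UMIs are not among the 17; there the membrane enzyme list on the NASH diet (under 2000 UMIs) and the pericentral list (under 2000 in chow, 2000 to under 8000 on the NASH diet) were lower in members. Lists that changed sign in some alternative were the periportal, immediate early, nuclear long noncoding, apoptosis and mitochondrial expression lists in both libraries, with ribosomal repeats, cytosolic enzymes and matrix enzymes on the NASH diet. The cause of each change was not tested.

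The members' share of barcodes was 4.61% in chow and 9.20% on the NASH diet at a minimum of 2000 UMIs, 40.6% on the NASH diet at 500, 3.85% and 12.3% for a mitochondrial share of 40 to 80%, and 3.83% and 22.9% for 30 to 60%. Genes at least 2-fold higher and lower in chow members numbered 90 and 649 at a minimum of 10 CPM and 92 and 805 with none, where more low genes are tested; 150 and 433 against barcodes of at most 20%; and 56 were lower in the deep barcodes without other classes. In chow 95 were higher with the 20 most abundant genes left out, 87 when centred and 95 in members of 40 to 80%.

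For the NASH diet the 8 higher and 76 lower genes became 33 and 359 at 10 CPM, 45 and 452 with no minimum, 325 and 422 against barcodes of at most 20%, 1 and 2 without other classes, 1 and 16 in deep barcodes without them, 16 and 179 at 2000 UMIs, 5 and 46 with all barcodes weighted by bin, and 17 and 24 as a mean over barcodes. The higher count was 13 when matched on non-mitochondrial UMIs, 13 with seed 2, 5 at a pseudocount of 20 CPM, 16 without the 20 most abundant genes, 13 when centred and 88 in members of 40 to 80%. Between diets the 173 higher genes in members became 111 at that pseudocount, 359 at 10 CPM, 432 with no minimum, 344 as a mean over barcodes, 520 in members of 50 to 80% and 89 when centred, and the 125 lower genes 188 with no minimum and 190 as a mean over barcodes. Thinned to 500 UMIs, the median of genes in members minus that in matched barcodes was -15 in chow and -6 on the NASH diet, where shallower barcodes drop out.

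Log2 ratios that turned from below to above 0 without other classes were, in chow, Ptprb 0.32, Dab2 0.17, Plxnd1 0.17, Mrc1 0.056, Egfl7 0.47, Eng 0.056, Wfdc17 0.89, Hba-a2 0.17 and Ucp2 0.032, and on the NASH diet Ptprb 0.60, Dab2 0.054, Aqp1 0.53, Mrc1 0.23, Eng 0.13, Hba-a1 0.19, Hba-a2 0.31 and Timp3 0.39. In deep barcodes without other classes (an alternative added after seeing the data, as were all depth bands and the coding sequences) they were Mrc1 0.24, Wfdc17 0.26 and Ucp2 0.23 in chow, and Ptprb 0.30, Dab2 0.16, Aqp1 0.18, Mrc1 0.30, Eng 0.032 and Hba-a2 0.43 on the NASH diet. The remaining reversals were Tyrobp on the NASH diet at 0.33 as a mean over barcodes and 0.24 in members of 40 to 80%, Hba-a2 in chow at 0.44 for 40 to 80% and 0.17 at 2000 UMIs, Ctsc in chow at 0.027 for 40 to 80%, and Slc1a2 between diets at 0.033 in members of 50 to 80%.

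Shallow NASH diet members held a median of 782.5 non-mitochondrial UMIs, so single genes are read from pools only. Members and matched barcodes of equal total UMIs differ in non-mitochondrial UMIs by construction. Removing the 433 chow and 277 NASH diet barcodes of highest Scrublet score (18 and 76 of them members) stood in for doublet removal.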

Other observations

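Intestinal genes marked 1 barcode among the NASH diet members. A list of 9 such genes, chosen after their values were seen (Prap1, Slc5a1, Reg1, Sis, Alpi, Mgam, Lct, Vil1 and S100g), had 1477 UMIs in these members. Of these, 1123 lay in 1 barcode, 175 in the next and 15 in the third. The first held 31298 UMIs, the highest total of any member in that library, with 43.7% mitochondrial UMIs, 5 UMIs of Alb, 8 of the 10 hepatocyte markers and 3 cholangiocyte markers.

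A few deep NASH diet members held markers of rarer classes. The 5 cholangiocyte-marked members had a median of 10104 UMIs and 71.0% mitochondrial share, among them the barcode at 43.7% above, and the 2 with T or NK cell markers 11068 UMIs and 71.4%, against 1523 UMIs and 39.3% in the 1357 members of no other class. The 80 members with Kupffer cell markers had a median of 1323 UMIs and 45.2%.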
